A study of Canis lupus familiaris with 2 samples.

Results

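The Eph receptors, ephrins, semaphorins and plexins are the ligand and receptor families through which neighbouring cells guide each other's movement and adhesion. Members were taken by gene symbol, and the families themselves were picked with earlier results of these data known. The deposited tables hold 49 such genes among 23510 features, namely 14 Eph receptor, 6 ephrin, 20 semaphorin and 9 plexin genes. They were compared in RNA of MDCK cells, an established canine kidney line that forms a columnar epithelial sheet. The line was cultured on a semipermeable membrane without any drug or genetic change, under medium 2 cm high (2 cm H2O, the culture without pressure load) or 50 cm high (50 cm H2O). Both inserts received 40000 cells, and the sample titles give day 3 of culture. Each height was represented by 1 culture, so no value has a replicate error, no test was made, and every difference below compares those cultures only.

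Eph receptors form the largest family of receptor tyrosine kinases. Their ligands, the ephrins, stay on the surface of the neighbouring cell, ephrin-A by a lipid anchor and ephrin-B by a transmembrane segment, so that the pair signals at cell contacts and in both directions. EphA receptors mainly bind ephrin-A and EphB receptors mainly bind ephrin-B. Semaphorins are secreted (class 3), membrane-spanning (classes 4, 5 and 6) or lipid-anchored (class 7) proteins. Their receptors are the plexins, which switch off small GTPases of the Ras and Rap type inside the cell, and the class 3 proteins mostly need a neuropilin as co-receptor. In renal and other epithelia these families are known for keeping cell sheets ordered, for the spacing of neighbouring cells and for branching of tubules.

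The level of a gene is given as FPKM, the number of sequenced fragments scaled by exon length and by the size of the library, which allows genes of different length to be compared. The 2-cm-high-medium culture had 15125 features above 0 FPKM, and the 50-cm-high-medium culture had 14951. The number of reads is unknown, but 215 of 574 features between 0 and 0.1 FPKM in both cultures shared the ratio that 1 read against 1 read leaves, which makes a read worth 9.77% more FPKM in 50-cm-high medium. Of the 7 epithelial markers, 6 were above 1 FPKM in both cultures, 2 of them higher and 4 lower in 50-cm-high medium. E-cadherin (CDH1) was at 211 and 229 FPKM, and EPCAM at 253 and 216 FPKM (ratio 0.852). The exception was the kidney cadherin CDH16, at 1.96 FPKM in 2-cm-high and 0.676 FPKM in 50-cm-high medium. The 13 fibroblast, endothelial, leukocyte and neuronal markers found in the tables stayed below 0.3 FPKM each, with 5 at 0 in both cultures. In such bulk RNA, fewer cells with a transcript and less of it per cell cannot be told apart.

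Of the 49 genes, 29 were above 1 FPKM in both cultures, 3 in only one of them, 4 were detected below 1 FPKM and 13 were listed at 0 in both. Only PLXNA4 passed a 2-fold difference, upward in 50-cm-high medium, which was 1 of the 29 genes against 0.389% of the 11057 features above 1 FPKM in both cultures. No member was lower by more than 2-fold among the 29, where 1.28% of all features were. At a threshold of 1.5-fold, 3 members were higher, namely PLXNA4, EFNB2 and EPHA2, which is 10.3% of the 29 compared with 2.13% of all features. Another 6 members, EFNA4, PLXNA3, SEMA6B, SEMA5A, EFNA3 and SEMA4G, were lower by more than 1.5-fold, which is 20.7% compared with 5.06% of all features. The 9 members past 1.5-fold thus included receptors and ligands, in both directions. In all, 17 of the 29 had a ratio above 1, which is 58.6% against 52.6% over all features. Their median log2 ratio of 50-cm over 2-cm FPKM was 0.07, beside 0.01 over all features. The middle of the set thus lay near that of all features. In the deposited values the shares past 1.5-fold were larger than the background in both directions. Of these 9 members, 7 were below 7 FPKM in both cultures, where ratios of all features spread more widely. After quantile normalization, EFNA3 (log2 ratio -0.45), SEMA5A (-0.46), PLXNA3 (-0.54) and SEMA6B (-0.56) no longer passed 1.5-fold. EFNA4, SEMA4G and the 3 higher members still did. The share of all features past 1.5-fold was not recounted in that setting.

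**Figure D1:**
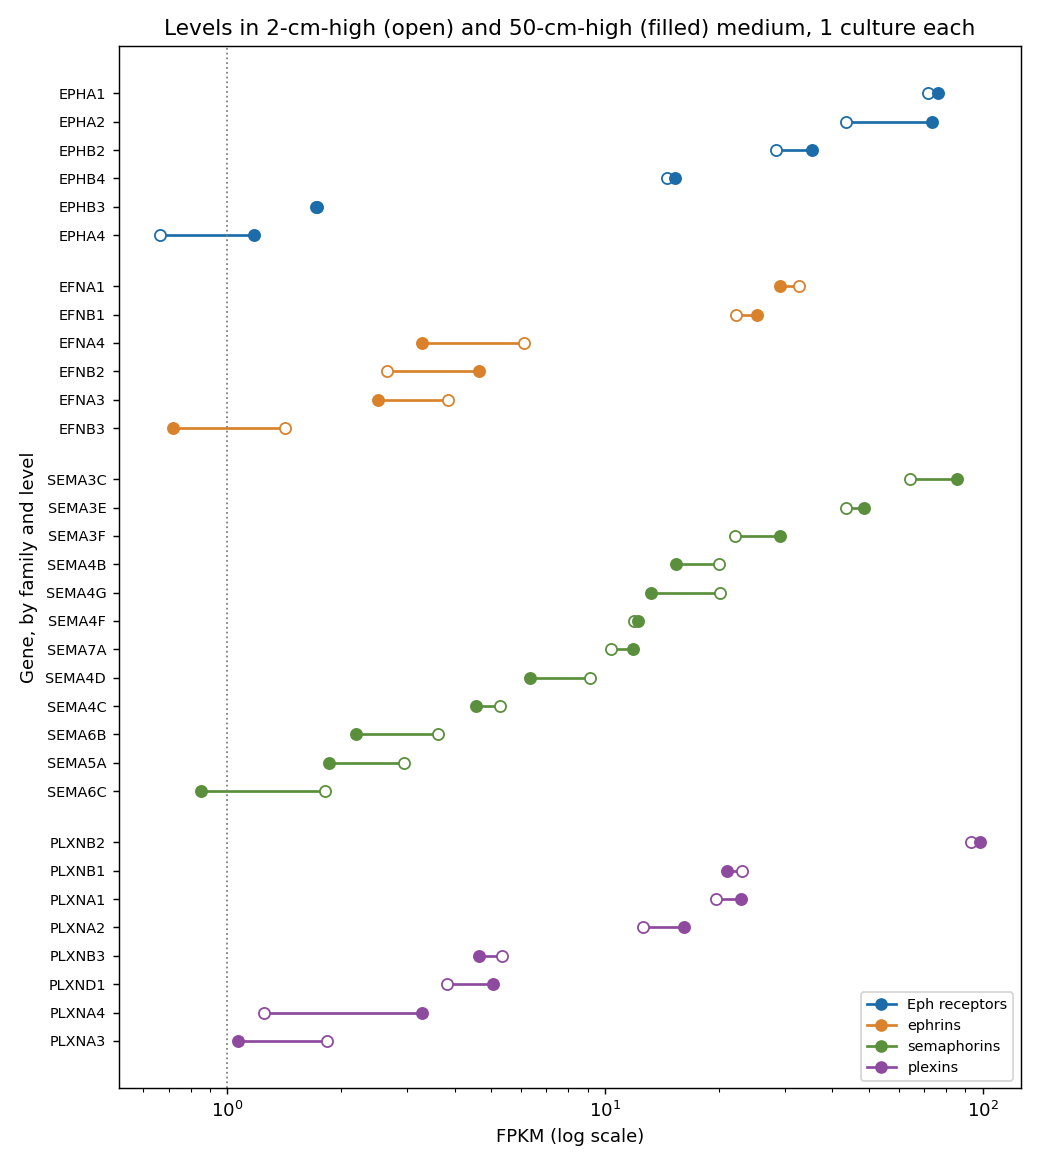
FPKM (horizontal, log scale) of the 32 members above 1 FPKM in at least one culture, grouped by family and ordered by level, with open points for the 2-cm-high-medium culture and filled points for the 50-cm-high-medium culture (1 culture each). PLXNB2, SEMA3C, EPHA1 and EPHA2 lay furthest to the right, and the longest lines belong to PLXNA4, SEMA6C and EFNB3, which lay near 1 FPKM (dotted).

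The Eph receptor RNA of these cells came almost entirely from 4 genes. EPHA1 was the most abundant, with 71.6 FPKM in 2-cm-high and 76.0 FPKM in 50-cm-high medium (ratio 1.06). EPHA2 is a receptor known from epithelial junctions, where it binds ephrin-A1. It had 43.4 FPKM in 2-cm-high and 73.2 FPKM in 50-cm-high medium (1.69-fold, log2 0.75). EPHA2 was thereby the receptor with the largest absolute difference, 29.8 of the 42.3 FPKM by which the summed Eph receptor level was higher in 50-cm-high medium. Its share of the Eph receptor sum was 27.1% in 2-cm-high and 36.1% in 50-cm-high medium, and that of EPHA1 was 44.6% and 37.5%. The order of levels was the same in both cultures, but EPHA2 stood at 0.607 times EPHA1 in the first and at 0.964 times EPHA1 in the second. 

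Among the EphB receptors, EPHB2 was the most abundant, at 28.4 and 35.3 FPKM in 2- and 50-cm-high medium (1.24-fold). EPHB4, the receptor that pairs with ephrin-B2 in blood vessels, was at 14.6 and 15.3 FPKM (ratio 1.05). EPHB3 had 1.72 and 1.73 FPKM, and its ratio turned from just above to just below 1 when the ratios were recentred on their median. Before recentring, all 5 Eph receptors above 1 FPKM in both cultures had ratios above 1, beside 52.6% of all features, with a median log2 ratio of 0.09. The ratio of EPHB3 is no difference in the deposited values, but quantile normalization gave it a log2 ratio of 0.24. EPHA4, a receptor that accepts both ephrin classes, crossed 1 FPKM between the cultures, from 0.663 to 1.18 FPKM (1.78-fold), and was left out of that count.

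All 6 ephrin genes listed under an ephrin symbol were detected, and they split by class and by member. EFNA1, the main ligand of EPHA2, was the most abundant, at 32.6 FPKM in 2-cm-high and 29.1 FPKM in 50-cm-high medium (ratio 0.894). EFNA4 had 6.10 and 3.28 FPKM (ratio 0.538), and EFNA3 had 3.84 and 2.505 FPKM (ratio 0.652). All 3 ephrin-A ligands were therefore lower in 50-cm-high medium. They also lie side by side on the chromosome, with 0 other protein-coding genes between EFNA1, EFNA3 and EFNA4 in the RefSeq annotation of the dog assembly UU_Cfam_GSD_1.0, a later assembly than the one the reads were mapped to. The ephrin-B ligands did not share that direction. EFNB1 was at 22.2 and 25.3 FPKM (1.14-fold) and EFNB2 at 2.64 and 4.64 FPKM (1.76-fold). EFNB3, in contrast, had 1.42 FPKM in 2-cm-high and 0.720 FPKM in 50-cm-high medium (ratio 0.507), so that EFNB2 exceeded EFNB3 1.86-fold in the first culture and 6.44-fold in the second. The ratio of EFNB2 matched 8 reads against 5 to within 0.05%, as would any multiple of these reads. Of all features above 1 FPKM in both cultures, 3.95% matched some ratio of at most 10 reads per culture.

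Receptor and ligand levels of the A class thus stood further apart under the higher medium. The summed EphA receptor level was 116 FPKM in 2-cm-high and 150 FPKM in 50-cm-high medium (1.30-fold), whereas the ephrin-A sum was 42.5 and 34.9 FPKM (ratio 0.821). EPHA2 alone made up 29.8 of the 34.6 FPKM by which the EphA sum was higher. EPHA2 stood at 1.33 times its ligand EFNA1 in the first culture and at 2.52 times in the second. In the B class, both sums were higher in 50-cm-high medium, with 44.7 and 52.4 FPKM for the EphB receptors (1.17-fold) and 26.3 and 30.7 FPKM for the ephrin-B ligands (1.17-fold). Over all 6 ephrins the sum was 68.8 and 65.6 FPKM (ratio 0.953), but without the leading gene EFNA1 this ratio was 1.01, so the direction of the total rested on that gene.

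The semaphorin classes differed in direction. The secreted class 3 members SEMA3C, SEMA3E and SEMA3F were the most abundant semaphorins in both cultures. SEMA3C was at 64.3 FPKM in 2-cm-high and 85.7 FPKM in 50-cm-high medium (1.33-fold). SEMA3F, a ligand of neuropilin 2, was at 22.1 and 29.1 FPKM (1.32-fold), and SEMA3E, which can act through plexin D1 without a neuropilin, at 43.6 and 48.4 FPKM (1.11-fold). All 3 detected class 3 genes were thus higher in 50-cm-high medium, and their sum went from 130 to 163 FPKM (1.255-fold). The ratio of SEMA3F matched 6 reads against 5 to within 0.05%, and so would any multiple of these reads. The lipid-anchored SEMA7A was also higher, with 10.4 and 11.9 FPKM (1.14-fold).

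The membrane-spanning semaphorins mostly had ratios below 1. Among the class 4 members, SEMA4G was at 20.2 FPKM in 2-cm-high and 13.3 FPKM in 50-cm-high medium (ratio 0.657), and SEMA4B at 20.1 and 15.4 FPKM (ratio 0.769). SEMA4D, the ligand of plexin B1, was at 9.11 and 6.32 FPKM (ratio 0.694). SEMA4C, a ligand of plexin B2, was at 5.28 and 4.56 FPKM (ratio 0.863). SEMA4F, at 11.9 and 12.2 FPKM (ratio 1.03), was the exception. In classes 5 and 6, SEMA6B was at 3.61 and 2.19 FPKM (ratio 0.606) and SEMA5A at 2.94 and 1.86 FPKM (ratio 0.632). SEMA6C had 1.82 FPKM in 2-cm-high but 0.855 FPKM in 50-cm-high medium (ratio 0.470) and thus lay past 2-fold, but outside the limit of 1 FPKM in both cultures. Of the 7 genes of classes 4, 5 and 6 above that limit, 6 were lower in 50-cm-high medium, and the sum of the 12 listed genes went from 74.99 to 56.7 FPKM (ratio 0.756). The 3 secreted members were thus higher and 6 of the 7 membrane-spanning members lower, a contrast for which no test could be made. Of all features, 52.6% had a ratio above 1. Among these members only SEMA4G lay outside the range of the 500 features nearest in level, described below. The median log2 ratio of those features was 0.04 to 0.08 for the class 3 members. It was -0.17 for SEMA5A, -0.14 for SEMA6B, -0.099 for SEMA4C and -0.03 for SEMA4D, but 0.05 for SEMA4B and 0.02 for SEMA4G. The part of level in this contrast was not tested. For all 20 semaphorins together the sum was 215 and 232 FPKM (1.08-fold), a direction that rested on SEMA3C, since without it the ratio was 0.967. The median log2 ratio over the 11 semaphorins above 1 FPKM was -0.21, but with a minimum of 5 FPKM it turned to 0.09.

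**Figure D2:**
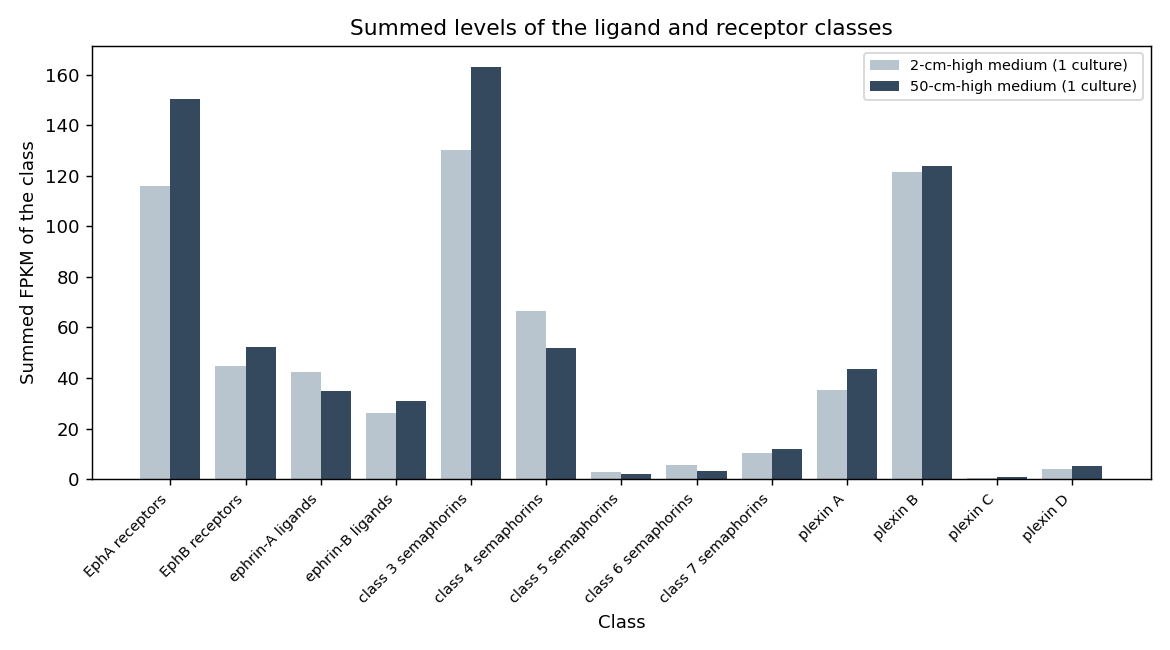
Summed FPKM (vertical) of each ligand and receptor class in 2-cm-high medium (light bars) and 50-cm-high medium (dark bars), 1 culture each and no error bars. The EphA receptors (116 and 150 FPKM) and the class 3 semaphorins (130 and 163 FPKM) were higher in 50-cm-high medium, and the ephrin-A ligands (42.5 and 34.9 FPKM) and the class 4 semaphorins (66.6 and 51.8 FPKM) were lower.

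PLXNB2 dominated the plexins, and PLXNA4 had the largest ratio of the whole set. PLXNB2, a receptor for class 4 semaphorins, was at 93.0 FPKM in 2-cm-high and 98.1 FPKM in 50-cm-high medium (ratio 1.06), more than 56% of the plexin sum in either culture. PLXNB1, the receptor of SEMA4D, was at 23.1 and 21.0 FPKM (ratio 0.911), and PLXNB3 at 5.35 and 4.65 FPKM (ratio 0.869). The plexin B sum was therefore nearly the same in both cultures, 121 and 124 FPKM. The plexin A genes, which serve class 3 and class 6 semaphorins, differed more. PLXNA4 had 1.252 FPKM in 2-cm-high and 3.29 FPKM in 50-cm-high medium (2.63-fold, log2 1.39), rank 13 among the 11057 features. PLXNA2 was at 12.6 and 16.2 FPKM (1.29-fold) and PLXNA1 at 19.6 and 22.9 FPKM (1.16-fold). PLXNA3 went the other way, with 1.83 and 1.07 FPKM (ratio 0.584). The low-level members PLXNA4 and PLXNA3 thus had the most different ratios of the class, and exchanged their order of level. The plexin A sum went from 35.3 to 43.4 FPKM (1.23-fold). PLXND1, the receptor of SEMA3E, was at 3.82 and 5.04 FPKM (1.32-fold), and PLXNC1, the receptor of SEMA7A, was at 0.504 and 0.845 FPKM, below the limit in both. The call of PLXNA4 at 2-fold was lost when a pseudocount of 1 FPKM was added to both values, which gave a log2 ratio of 0.93.

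Single ligands were set beside their plexins, and for the class 4 members SEMA4C and SEMA4D the receptor was in excess. PLXNB2 stood at 17.6 times SEMA4C in 2-cm-high and 21.5 times in 50-cm-high medium, and PLXNB1 at 2.53 and 3.32 times SEMA4D. SEMA4C was the least abundant detected class 4 gene, and the sums lay closer together. Plexin B summed to 121 and 124 FPKM, and class 4 to 66.6 and 51.8 FPKM. Class 3, at 130 and 163 FPKM, exceeded plexin A, at 35.3 and 43.4 FPKM. For SEMA3E and SEMA7A it was the ligand that was in excess, with SEMA3E at 11.4 and 9.60 times PLXND1 and SEMA7A at 20.6 and 14.0 times PLXNC1. These ratios and sums are of RNA levels per length within a culture and say nothing of the proteins.

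No replicate was available to measure error, so each log2 ratio was set beside the 500 features nearest to the gene in mean level. This is a spread across genes, which mixes noise with real differences. Of the 29 members, 25 lay within the middle 95% of such features. PLXNA4 (range -1.16 to 0.82), EFNB2 (-1.15 to 0.73) and EPHA2 (-0.49 to 0.46) lay above it, and SEMA4G (-0.57 to 0.55) lay below it. EPHA2 and SEMA4G were the abundant ones among these. They lay outside at smaller ratios than PLXNA4 and EFNB2, since the range narrowed with the level. At low levels the comparison features were themselves lower in 50-cm-high medium, with a median log2 ratio of -0.14 for SEMA6B, -0.17 for SEMA5A, -0.15 for EFNA3, -0.19 for PLXNA3 and -0.10 for EFNA4. All 5 of these members were lower than those medians, at log2 ratios of -0.72, -0.66, -0.62, -0.78 and -0.89, but remained inside the ranges. The part of level in their ratios was not tested. EFNB2 and PLXNA4 were higher in 50-cm-high medium at levels where the median feature had log2 ratios of -0.14 and -0.19.

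**Figure D3:**
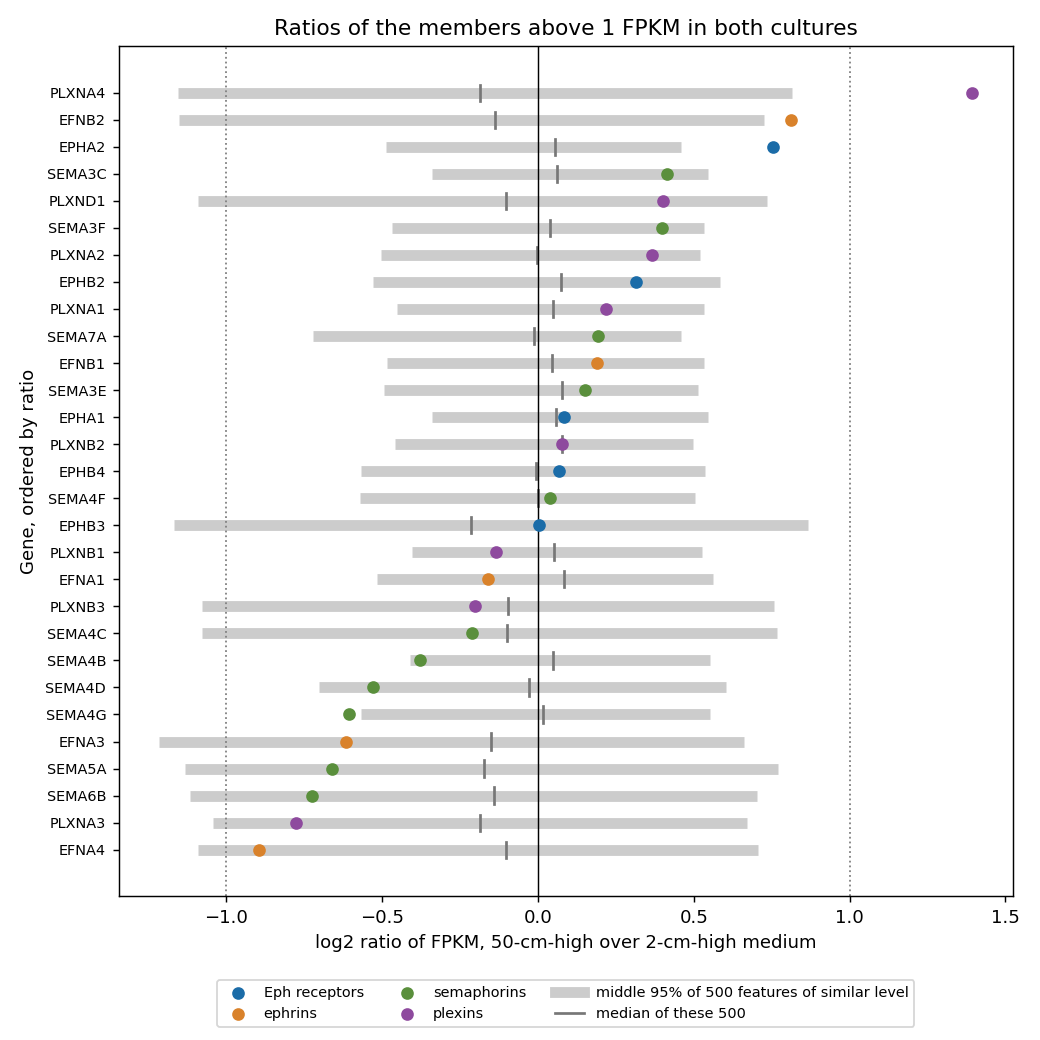
Log2 ratio of 50-cm over 2-cm FPKM (horizontal) of the 29 members above 1 FPKM in both cultures, ordered by ratio (points, coloured by family), with the middle 95% (grey bars) and the median (ticks) of the 500 features nearest in level and dotted lines at 2-fold. PLXNA4, EFNB2 and EPHA2 lay above their bars, SEMA4G below its bar, and the other 25 members within.

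**Figure D4:**
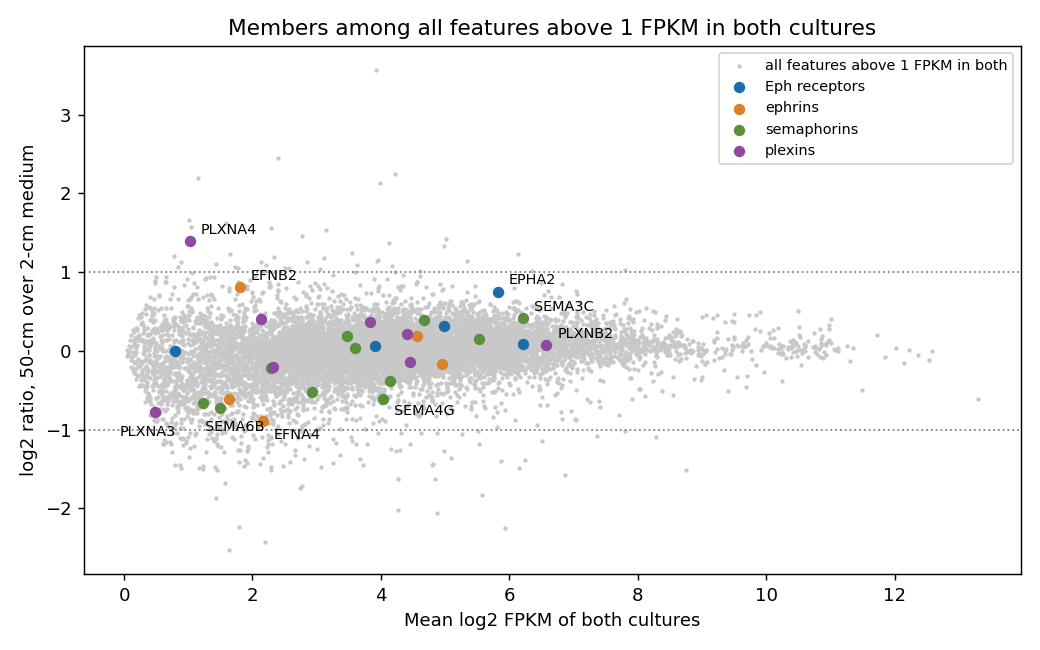
Log2 ratio (vertical) against mean log2 FPKM of both cultures (horizontal) for the 11057 features above 1 FPKM in both cultures (grey), with the 29 members coloured by family and dotted lines at 2-fold. PLXNA4 was the only member beyond 2-fold and lay at a low level, whereas EPHA2 lay at a high level where few features reached its ratio.

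The genes that work beside these receptors were taken from a list of 69 co-receptor, protease and signal transducer genes, of which 67 were in the tables and 58 were above 1 FPKM in both cultures. Of the 58, 34 were higher and 24 lower in 50-cm-high medium, with a median log2 ratio of 0.06 against 0.01 over all features. The 34 are 58.6% of the list, beside 52.6% of all features. None was higher and 2 were lower by more than 2-fold, beside 0.389% and 1.28% of all features. Both neuropilins, the class 3 co-receptors, were higher in 50-cm-high medium. NRP2 was at 3.47 and 5.83 FPKM (1.68-fold). NRP1, at 0.412 and 1.09 FPKM (2.65-fold), was below 1 FPKM in 2-cm-high medium and thus not among the 58. Of the receptor tyrosine kinases that associate with B plexins, MET was at 146 and 183 FPKM (1.252-fold), and ERBB2 at 39.9 and 31.6 FPKM (ratio 0.791). The ephrin-cleaving protease ADAM10 was at 55.5 and 53.1 FPKM (ratio 0.957).

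Of the 25 transducers downstream of plexins above 1 FPKM in both cultures, 16 were higher and 9 lower in 50-cm-high medium. Their median log2 ratio was 0.101. RND1, at 1.59 and 2.49 FPKM (1.57-fold), and RHOD, at 33.6 and 50.5 FPKM (1.505-fold), were higher past 1.5-fold. DPYSL2, which encodes the semaphorin 3 mediator CRMP2, was the 1 gene lower past 1.5-fold, at 55.1 and 26.6 FPKM (ratio 0.482). FARP1, a Rac exchange factor, was at 18.8 and 12.8 FPKM (ratio 0.677). Among those downstream of Eph receptors, the adaptor GRB7 was at 9.65 and 4.78 FPKM (ratio 0.495), and RGS3, which binds ephrin-B tails, at 1.93 and 3.14 FPKM (1.63-fold). The kinase SRC was at 76.3 and 86.8 FPKM (1.14-fold). The transducers therefore held higher and lower members side by side, as the plexins did.

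The remaining members were at or near the limit of detection. EPHA6 had 0.0765 FPKM in 2-cm-high and 0.0105 FPKM in 50-cm-high medium, EPHB1 had 0 and 0.0165 FPKM, and SEMA5B had 0.0138 and 0 FPKM. A value above 0 rests on at least 1 read, so these levels rest on few reads and their ratios are not read as results. The ratio of EPHA6 entered only the counts and medians of the alternative minimum of 0 FPKM. EPHA3, EPHA5, EPHA7, EPHA8, EPHA10, EPHB6, SEMA3A, SEMA3B, SEMA3D, SEMA3G, SEMA4A, SEMA6A and SEMA6D were listed at 0 FPKM in both cultures. ATP5O, a subunit of mitochondrial ATP synthase that respiring cells use, and ITSN1 of the transducer list were also listed at 0 in both, so a listed 0 does not show that the RNA was absent. SEMA3A, at 0, is the next protein-coding gene to the abundant SEMA3E in the same RefSeq annotation.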

How the data were processed

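RNA of 1 MDCK culture per medium height was sequenced by the authors as 75-base single-end reads of stranded mRNA libraries. Per the submitters' processing notes and methods, reads were mapped to CanFam3.1 with TopHat2 2.0.13, Bowtie2 2.2.3 and SAMtools 0.1.19. The deposited FPKM values were made with Cuffnorm 2.2.1. The gene annotation and scaling method are not given in the sources used here. FPKM are relative within a library, so abundant genes that differ move all other values. The number of reads is unknown.

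Ratios of 50-cm over 2-cm FPKM had no pseudocount. Features needed more than 1 FPKM in each culture and were counted past 2-fold, as in the study's rule, or 1.5-fold. At 2-fold the deposited values gave 43 higher and 142 lower features, fewer than the paper reports. The reason for that gap was not tested. With 1 culture per group there was no test. Named were members past 1.5-fold, the 3 most abundant of each family, members of known ligand-receptor pairs, and list genes past 2-fold or at the extremes. SEMA4B, SEMA4F and further list genes were named after their values were seen. The members and lists were chosen with earlier results of these data known. Alternatives were other FPKM minima, pseudocounts of 0.1 and 1, recentring, quantile normalization, and leaving out steps of few reads or the leading gene. Symbols were matched to RefSeq (49 of 49 members), whose assembly differs from CanFam3.1, so no positions are given. No sequences are shown, and some transducer genes are not reported here. The scripts (Python 3.11.15, numpy 2.4.6, pandas 2.3.3, matplotlib 3.10.9) were tested on simulated data.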

Additional observations from a re-analysis of the deposited data

How the results depend on the processing

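With 1 culture per medium height, no value has a replicate error, and depth in reads is unknown, and ratios of all features spread most at low levels. No paired analysis was possible because each group had 1 culture. No single gene changed sign under a pseudocount or scaling, except EPHB3 (log2 ratio 0.003, then -0.01 after recentring). Of 94 summary values under an alternative, 39 equalled the reported value when rounded to 2 decimals or, for counts, were within 1.5 times of it, and the others follow. The cause of these shifts was not tested beyond the change in members used.

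The 1 member higher by more than 2-fold (PLXNA4) became 0 with a minimum of 5 FPKM or a pseudocount of 1, and 3 at 1.5-fold. The 0 members lower became 1 with a minimum of 1 FPKM in one culture or 0.1 in both (SEMA6C), 2 above 0 FPKM (EPHA6 added), and 6 at 1.5-fold. The median log2 ratio of the members (0.069) became 0.053 with 1 FPKM in one culture or any value above 0, 0.118 above 5 FPKM, 0.064 with a pseudocount of 1, 0.054 recentred, 0.041 after quantile normalization and 0.037 without ratios at steps of few reads. For the Eph receptors (0.085) it became 0.2002 with minima of 1 in one culture, 0.1 or 5 FPKM, 0.084 with a pseudocount of 1, 0.071 recentred and 0.243 after quantile normalization. For the ephrins (-0.162) it became -0.389 with minima of 1 in one culture, 0 or 0.1 FPKM or without steps of few reads, 0.013 above 5 FPKM (EFNA1 and EFNB1 only, with opposite signs), a reversal, -0.176 recentred and -0.223 after quantile normalization. For the semaphorins (-0.213) it became -0.296 with the same 3 minima or without steps, 0.094 above 5 FPKM, also a reversal, -0.177 with a pseudocount of 1, -0.227 recentred and -0.097 after quantile normalization. For the plexins (0.148) it became 0.219 with minima of 0 or 0.1 FPKM, 0.143 with a pseudocount of 1, 0.134 recentred and 0.097 after quantile normalization.

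The ratio of summed FPKM of the Eph receptors (1.263) became 1.251 recentred, 1.213 after quantile normalization and 1.426 without EPHA1. EPHA1 was left out as the most abundant gene. EPHA2, which held most of the difference of that sum, was not left out. That of the ephrins (0.953) became 0.994 above 5 FPKM, 0.944 recentred, 0.943 after quantile normalization and 1.007 without EFNA1. That of the semaphorins (1.076) became 1.102 above 5 FPKM, 1.065 recentred, 1.053 after quantile normalization and 0.967 without SEMA3C. That of the plexins (1.075) became 1.067 above 5 FPKM, 1.064 recentred, 1.050 after quantile normalization and 1.102 without PLXNB2.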

Other observations

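Other guidance families were read from a list of 29 netrin, Slit, Robo, UNC5, RGM, FLRT and related genes, of which 27 were in the tables and 11 were above 1 FPKM in both cultures. Of these, 4 were higher and 7 lower in 50-cm-high medium, with a median log2 ratio of -0.13 and none past 2-fold. The 4 are 36.4% of the 11, beside 52.6% of all features, of which 0.389% were higher and 1.28% lower by more than 2-fold. SLIT2, a secreted ligand of Robo receptors, had the lowest ratio, with 5.35 FPKM in 2-cm-high and 2.96 FPKM in 50-cm-high medium (ratio 0.553). FLRT2 had the highest, at 2.32 and 2.75 FPKM (1.19-fold). The list's most abundant gene was the GTPase regulator SRGAP2, at 13.4 and 12.2 FPKM (ratio 0.909). DCC and ROBO1 were listed at 0 in both cultures. Netrin 4 (NTN4) was at 5.58 and 5.55 FPKM, a ratio of 0.994.

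EFNA5 is listed in the tables under the locus name LOC608458, which the RefSeq gene number pairs with that symbol, and it was therefore not counted among the members. Its level was 0.0959 FPKM in 2-cm-high and 0 FPKM in 50-cm-high medium. EFNA2 was not analysed here.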
